A study of Homo sapiens with 12 samples.

Results

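The transcripts described here are 10 genes for surface proteins through which tumour cells are seen by immune cells: the NKG2D ligands MICA, MICB, ULBP1, ULBP2, ULBP3 and RAET1G, and the checkpoint ligands CD274, PVR, CD276 and CD47. They were chosen by gene symbol from the 57773 genes of the deposited count table, and all 10 passed the filter on low counts that left 17532 genes. Levels were measured by RNA sequencing in A549, a human lung adenocarcinoma cell line, 72 h after reverse transfection, in which cells are plated onto the siRNA and lipid mixture. The groups were siGOLM1-1 and siGOLM1-2, which are separate siRNAs against GOLM1, a transmembrane protein of the Golgi, and a non-targeting control siRNA, each at 50 nM with 4 libraries labelled as biological replicates. All groups thus shared transfection and siRNA dose, both siRNAs were set against the same 4 control libraries, and the siRNA sequences are not given in the sources used here.

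NKG2D is an activating receptor of natural killer cells and of some T cells. Its ligands are relatives of MHC class I that are scarce on most healthy cells and appear on infected, stressed and transformed cells, where they mark the cell for killing. Metalloproteases can cut them from the surface, so the mRNA level and the surface level need not move together. CD274 (PD-L1) and CD276 (B7-H3) are B7 family proteins, and CD274 restrains T cells through PD-1. PVR (CD155) binds the activating receptor DNAM-1 and the inhibitory receptor TIGIT, while CD47 gives macrophages a signal against engulfment through SIRPA. The cultures held A549 cells alone, so immune cells were not part of the system, although SIRPA transcript was present in the A549 libraries.

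Total counts ran from 41.6 to 71.3 M per library. GOLM1 fell 9.52-fold with siGOLM1-1 and 7.72-fold with siGOLM1-2, with 37.5 to 38.9 CPM in the siGOLM1-1 libraries, 44.6 to 53.4 CPM in the siGOLM1-2 libraries and 345 to 378 CPM in the control libraries. CPM are counts per 1 M of the scaled library total. The 10 epithelial and A549 markers summed to 19909 to 22710 CPM with siGOLM1-1, 17414 to 18607 CPM with siGOLM1-2 and 20100 to 23223 CPM in control. Against control, 3 of them were higher and 3 lower with siGOLM1-1, among them AKR1C1 (2.05-fold higher) and KRT18 (2.08-fold lower), and 2 were higher and 2 lower with siGOLM1-2, among them KRT7 (1.90-fold lower). Of 17 lymphocyte and macrophage markers, 3 (NKG7, PDCD1 and MS4A1) had no count in any library and 15 stayed under 1 CPM in all 12, and the whole list summed to 10.5 to 16.9 CPM with siGOLM1-1, 11.95 to 14.1 CPM with siGOLM1-2 and 7.65 to 8.48 CPM in control. Most of that sum was CD14, at a mean of 12.7 CPM with siGOLM1-1, 11.8 CPM with siGOLM1-2 and 7.05 CPM in control, while the leukocyte marker PTPRC stayed at or under 0.0404 CPM in every library. The 8 fibroblast and endothelial markers in the table summed to 50.8 to 95.6 CPM with siGOLM1-1, 28.1 to 41.0 CPM with siGOLM1-2 and 34.5 to 75.3 CPM in control. A lower level in bulk RNA cannot be told apart from fewer cells carrying the transcript.

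With siGOLM1-1, 9 of the 10 genes passed the test against control, where a gene is called at an adjusted p under 0.05 (edgeR quasi-likelihood test, Benjamini-Hochberg over all genes tested). Of these, 5 were lower, namely MICA, MICB, ULBP2, ULBP3 and RAET1G, and 4 were higher, namely ULBP1, PVR, CD276 and CD47. Among all genes tested 47.5% were called, 23.7% higher and 23.8% lower, so a call by itself was common in these libraries. For 8 of the 10 genes no library of either group reached the range of the other, beside 41% of all genes tested. With siGOLM1-2, 5 genes were called, namely ULBP2, RAET1G, CD276 and CD47 as higher and MICA as lower. That share was close to the 45% called among all genes, with 21.8% of all genes higher and 23.2% lower, and 6 of the 10 genes had groups without overlap, beside 45.9% of all genes. When libraries were scaled by their totals alone, 5 members were higher and none lower with siGOLM1-2, and of all calls 59.2% were higher in place of 48.4%. With siGOLM1-1 against control, that scaling made 43.0% of all calls higher in place of 49.8%.

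The siRNAs were compared directly in the same fit. In siGOLM1-1 against siGOLM1-2, 7 of the 10 genes differed, with ULBP1 and PVR higher and MICB, ULBP2, ULBP3, RAET1G and CD47 lower with siGOLM1-1. Of all genes 54.4% were called in that comparison, 27.9% higher and 26.5% lower, and 48.4% had libraries without overlap, as did 6 of the 10. Scaling by library totals alone made 37.4% of all calls higher in place of 51.2%, and 2 members higher and 6 lower. The median log2 fold change of the 10 genes was -0.33 with siGOLM1-1 against control, 0.33 with siGOLM1-2 against control and -0.58 for siGOLM1-1 against siGOLM1-2, while over all genes tested it lay between -0.01 and 0.01. The median size of the change, sign aside, was 0.49 for the 10 genes and 0.35 for all genes with siGOLM1-1 against control. It was 0.33 for both sets with siGOLM1-2 against control, and 0.73 for the 10 genes and 0.40 for all genes between the siRNAs.

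**Figure D1:**
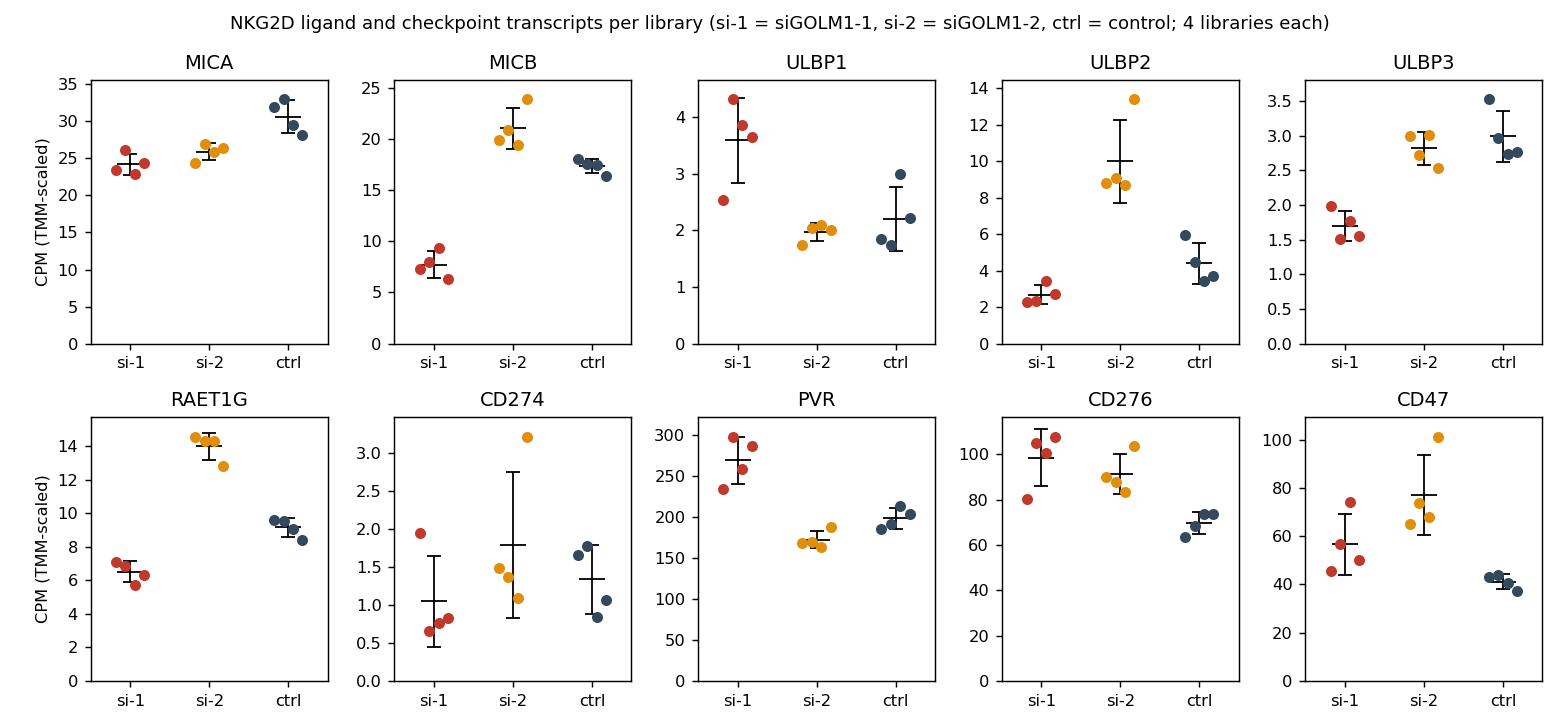
Level of each gene in CPM for the 4 libraries of siGOLM1-1, siGOLM1-2 and control, from left to right in each panel. The mean is a horizontal bar and the SD a vertical bar. MICB, ULBP2 and RAET1G are lowest with siGOLM1-1 and highest with siGOLM1-2 in these panels, while MICA is below control with both siRNAs and CD276 and CD47 are above it with both.

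MICA and MICB lie near each other in the MHC region of chromosome 6, both on the plus strand, and encode closely related stress-induced ligands. Their promoters, 250 bases before to 50 bases after the transcript start from RefSeq on GRCh38.p14, are shown because the 2 genes, though close relatives, had unlike fold changes with siGOLM1-1. The pair was 82.4% identical over 301 aligned columns. Sequences run 5′ to 3′ on the strand of the gene, and capitals mark matches, on either strand, to the motifs searched.
MICA, chr6:31403345-31403644, plus strand: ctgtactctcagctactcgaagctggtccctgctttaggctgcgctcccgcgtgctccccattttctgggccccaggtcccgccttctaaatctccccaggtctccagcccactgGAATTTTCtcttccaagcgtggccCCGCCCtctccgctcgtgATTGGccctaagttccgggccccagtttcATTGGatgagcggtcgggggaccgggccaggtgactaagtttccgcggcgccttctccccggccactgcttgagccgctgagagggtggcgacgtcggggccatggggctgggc
MICB, chr6:31497895-31498194, plus strand: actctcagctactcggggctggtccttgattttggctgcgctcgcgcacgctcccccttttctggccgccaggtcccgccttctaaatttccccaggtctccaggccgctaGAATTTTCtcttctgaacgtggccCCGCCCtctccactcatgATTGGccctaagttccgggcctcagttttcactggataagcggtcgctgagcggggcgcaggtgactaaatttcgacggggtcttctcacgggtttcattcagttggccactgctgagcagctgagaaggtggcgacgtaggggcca
Each window held the heat shock element motif GAANNTTC, the GC box GGGCGG and the CCAAT box CCAAT. The heat shock match began 135 bases before the start in MICA and 139 bases before it in MICB. Among 35116 RefSeq promoter windows of the same length, 6.77% held GAANNTTC, 44.95% held GGGCGG and 34.61% held CCAAT.

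MICB was the ligand with the lowest adjusted p of the 10 genes with siGOLM1-1. It had 7.28, 7.94, 9.38 and 6.33 CPM in the siGOLM1-1 libraries, 19.96, 20.9, 19.5 and 23.9 CPM in the siGOLM1-2 libraries and 18.1, 17.6, 17.5 and 16.4 CPM in the control libraries. The 3 groups did not overlap, with siGOLM1-1 at the bottom and siGOLM1-2 at the top. Against control, MICB was 2.25-fold lower with siGOLM1-1 (log2 -1.17, SE 0.11, adjusted p = 2.07e-06). With siGOLM1-2 its log2 fold change was 0.28 (SE 0.11), which missed the threshold at an adjusted p of 0.0532 and has a 95% interval of 0.04 to 0.51. Between the siRNAs it was 2.72-fold lower with siGOLM1-1 (log2 -1.45, SE 0.11, adjusted p = 1.77e-07).

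MICA moved less and the same way with both siRNAs. It stood at 23.5, 26.1, 22.9 and 24.4 CPM with siGOLM1-1, at 24.4, 27.0, 25.9 and 26.4 CPM with siGOLM1-2 and at 31.9, 33.0, 29.5 and 28.2 CPM in control. All 8 siGOLM1 libraries lay below the lowest control library. The log2 fold change was -0.34 with siGOLM1-1 (SE 0.07, adjusted p = 0.0018) and -0.24 with siGOLM1-2 (SE 0.07, adjusted p = 0.016). The call with siGOLM1-2 was lost in 4 of 21 alternatives, namely against control replicates 3 and 4 only (-0.14, adjusted p = 0.225), on library totals alone (-0.17), without control replicate 2 (-0.19) and without siGOLM1-2 replicate 1 (-0.21). The difference between the siRNAs did not pass the test, at -0.10 with a 95% interval of -0.26 to 0.06. The count of MICB reads per MICA read was 0.310, 0.304, 0.410 and 0.260 with siGOLM1-1, 0.818, 0.776, 0.751 and 0.906 with siGOLM1-2 and 0.567, 0.532, 0.594 and 0.581 in control, so the ratio of the pair separated the 3 groups. In the GENCODE annotation MICA overlaps the non-coding gene HCP5 on its own strand, and reads of that overlap may have been counted for either gene.

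The other ligands form a cluster on the long arm of chromosome 6, in the order RAET1E, RAET1G, ULBP2, ULBP1, RAET1L and ULBP3. ULBP2, ULBP3 and ULBP1 encode ligands, RAET1G encodes ULBP5 and RAET1E encodes ULBP4. Windows of 101 bases, the read length, from the exons of ULBP2 were shared with RAET1G or RAET1L in 11.69% of positions, those of ULBP3 with RAET1K in 6.76%, those of RAET1G with its relatives in 1.42% and those of ULBP1 in 1.12%, so a part of the ULBP2 and ULBP3 reads is uncertain. The promoters of 3 adjacent genes of the cluster are shown because RAET1G and ULBP2 went the same way as each other with each siRNA while ULBP1, next to ULBP2, went the other way with siGOLM1-1.
RAET1G, chr6:149923072-149923371, minus strand: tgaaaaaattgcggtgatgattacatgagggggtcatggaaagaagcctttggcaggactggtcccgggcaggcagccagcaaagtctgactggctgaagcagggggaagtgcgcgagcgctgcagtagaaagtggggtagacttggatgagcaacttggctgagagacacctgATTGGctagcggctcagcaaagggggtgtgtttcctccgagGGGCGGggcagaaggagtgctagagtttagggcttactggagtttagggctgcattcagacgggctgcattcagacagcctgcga
ULBP2, chr6:149941764-149942063, plus strand: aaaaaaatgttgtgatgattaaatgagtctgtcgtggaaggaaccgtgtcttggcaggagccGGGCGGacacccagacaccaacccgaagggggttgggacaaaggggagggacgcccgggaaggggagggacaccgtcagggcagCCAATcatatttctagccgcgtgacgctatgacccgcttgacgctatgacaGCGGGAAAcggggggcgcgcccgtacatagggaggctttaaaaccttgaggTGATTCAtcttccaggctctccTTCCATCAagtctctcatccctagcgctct
ULBP1, chr6:149963693-149963992, plus strand: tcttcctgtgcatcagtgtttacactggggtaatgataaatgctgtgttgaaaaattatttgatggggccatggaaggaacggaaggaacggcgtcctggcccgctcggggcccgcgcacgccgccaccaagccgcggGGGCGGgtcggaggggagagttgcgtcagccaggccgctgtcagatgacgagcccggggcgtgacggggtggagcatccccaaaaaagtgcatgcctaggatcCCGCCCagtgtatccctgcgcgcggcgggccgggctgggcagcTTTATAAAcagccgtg
RAET1G and ULBP2 were 72.8% identical over 81 aligned columns, ULBP1 and ULBP2 70.1% over 77, and RAET1G and ULBP1 61.4% over 153. RAET1G and ULBP2 each held CCAAT and GGGCGG. ULBP2 and ULBP3 held the AP-1 motif TGANTCA across the start. RAET1E and RAET1L held it 79 and 66 bases before a start. ULBP2 also held the E2F motif TTTNNCGC and the ATF4 motif TGATGNAA. The AP-1, E2F and ATF4 motifs occur in 7.71%, 6.89% and 3.62% of all windows. ULBP1 held GGGCGG and, after its start, overlapping matches on both strands to the TATA box TATAAA, which occurs in 11.53% of windows. The motif TGACGTCA (1.85% of windows) had no match in the 11 windows of the 10 genes, of which CD276 has a pair. TTCNNNGAA and GAAANNGAA, a STAT and an interferon motif found in 7.66% and 8.11% of windows, matched in the CD274 window and in none of the other 10. Such matches describe the letters of a window and do not show that a factor binds there.

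ULBP2 had the largest fold difference between the siRNAs among the 10 genes. It measured 2.26, 2.32, 3.40 and 2.69 CPM with siGOLM1-1, 8.78, 9.09, 8.69 and 13.4 CPM with siGOLM1-2 and 5.96, 4.47, 3.45 and 3.68 CPM in control. The groups did not overlap, although the highest siGOLM1-1 library, at 3.40 CPM, was close to the lowest control library, at 3.45 CPM. ULBP2 was 1.65-fold lower with siGOLM1-1 (log2 -0.72, SE 0.21, adjusted p = 0.0102) and 2.27-fold higher with siGOLM1-2 (log2 1.18, SE 0.20, adjusted p = 3.10e-04). The direct difference was 3.75-fold (log2 -1.91, SE 0.20, adjusted p = 3.58e-06). Against control replicates 3 and 4 alone the fall with siGOLM1-1 was -0.41 on the log2 scale with an adjusted p of 0.145, and against replicates 1 and 2 alone it was -0.97.

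RAET1G went the same way as ULBP2 with each siRNA. Its levels were 7.10, 6.87, 5.69 and 6.33 CPM with siGOLM1-1, 14.6, 14.3, 14.3 and 12.8 CPM with siGOLM1-2 and 9.61, 9.52, 9.06 and 8.42 CPM in control. No library of one group reached into another. The log2 fold change was -0.49 with siGOLM1-1 (SE 0.09, adjusted p = 6.93e-04) and 0.61 with siGOLM1-2 (SE 0.09, adjusted p = 1.27e-04). The siRNAs differed 2.15-fold (log2 -1.10, SE 0.09, adjusted p = 3.90e-07). These calls held in every one of the 21 alternatives.

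RAET1E, next to RAET1G and not among the 10 genes, showed 2.96, 2.65, 2.78 and 2.63 CPM with siGOLM1-1, 9.75, 9.97, 9.83 and 9.23 CPM with siGOLM1-2 and 3.80, 3.75, 5.82 and 5.58 CPM in control. It was lower with siGOLM1-1 (log2 -0.78, SE 0.15, adjusted p = 6.25e-04) and higher with siGOLM1-2 (log2 1.03, SE 0.14, adjusted p = 6.20e-05). Of its exon windows 30.83% were shared with the overlapping gene AL355312.5, so its level is uncertain. RAET1L had 1 to 9 counts per library and was not tested.

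ULBP3, at the other end of the cluster, fell with siGOLM1-1 and did not pass the test with siGOLM1-2. Its levels were 1.98, 1.51, 1.76 and 1.55 CPM with siGOLM1-1, 2.99, 2.73, 3.01 and 2.53 CPM with siGOLM1-2 and 3.52, 2.96, 2.73 and 2.76 CPM in control. The siGOLM1-1 libraries all lay below the rest, and the siGOLM1-2 and control libraries overlapped. The log2 fold change was -0.81 with siGOLM1-1 (SE 0.14, adjusted p = 3.70e-04). With siGOLM1-2 it was -0.09, with a 95% interval of -0.39 to 0.21 (adjusted p = 0.628). The direct difference was -0.72 (SE 0.14, adjusted p = 6.95e-04).

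ULBP1 was the only ligand of the 6 that was called higher with siGOLM1-1. It had 2.53, 4.31, 3.85 and 3.64 CPM with siGOLM1-1, 1.74, 2.03, 2.09 and 2.01 CPM with siGOLM1-2 and 1.84, 1.73, 2.99 and 2.21 CPM in control. Replicate 1 of siGOLM1-1 lay below replicate 3 of the control, so those groups overlapped, whereas siGOLM1-1 and siGOLM1-2 did not. ULBP1 was 1.63-fold higher with siGOLM1-1 than in control (log2 0.70, SE 0.20, adjusted p = 0.00907) and 1.82-fold higher than with siGOLM1-2 (log2 0.86, SE 0.20, adjusted p = 0.00206). With siGOLM1-2 against control the log2 fold change was -0.16, with an interval of -0.59 to 0.27. Against control replicates 3 and 4 alone the rise with siGOLM1-1 was 0.47 with an adjusted p of 0.102, and against replicates 1 and 2 alone it was 1.00.

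**Figure D2:**
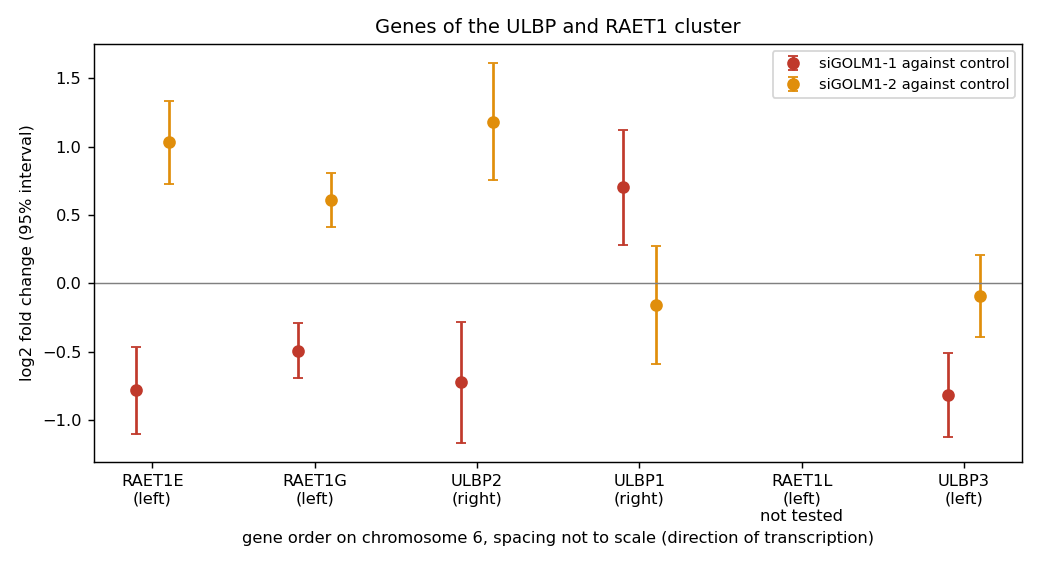
Log2 fold change with its 95% interval, against control, for the genes of the ULBP and RAET1 cluster in their order along chromosome 6, with the direction of transcription in brackets. RAET1E, RAET1G and ULBP2 lie below 0 with siGOLM1-1 and above 0 with siGOLM1-2, ULBP1 lies above 0 with siGOLM1-1, and RAET1L was not tested.

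Levels of different genes were compared per length, as RPKM, which is the CPM divided by the exon length in kilobases from GENCODE 29. Summed over the 6 ligands, the level was 22.1 ± 0.70 RPKM with siGOLM1-1, 38.7 ± 1.86 RPKM with siGOLM1-2 and 32.2 ± 2.38 RPKM in control (SD, n = 4). The libraries spanned 21.4 to 23.0 RPKM with siGOLM1-1, 37.2 to 41.3 RPKM with siGOLM1-2 and 29.6 to 34.9 RPKM in control, and the ranges did not overlap. MICA made up 45.9%, 28.1% and 39.9% of the sum with siGOLM1-1, with siGOLM1-2 and in control, as the mean over libraries. MICB made up 12.5% with siGOLM1-1, 19.4% with siGOLM1-2 and 19.3% in control. RAET1G made up 19.8% with siGOLM1-1, 24.4% with siGOLM1-2 and 19.1% in control. ULBP2 made up 8.95% with siGOLM1-1, 19.0% with siGOLM1-2 and 10.0% in control. MICA thus held the largest mean share in each group, and ULBP2 and RAET1G held larger mean shares with siGOLM1-2 than in control. RAET1E and RAET1L, not among the 10 genes, were left out of the sum and shares. RAET1E averaged 0.92 RPKM with siGOLM1-1, 3.23 RPKM with siGOLM1-2 and 1.58 RPKM in control.

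**Figure D3:**
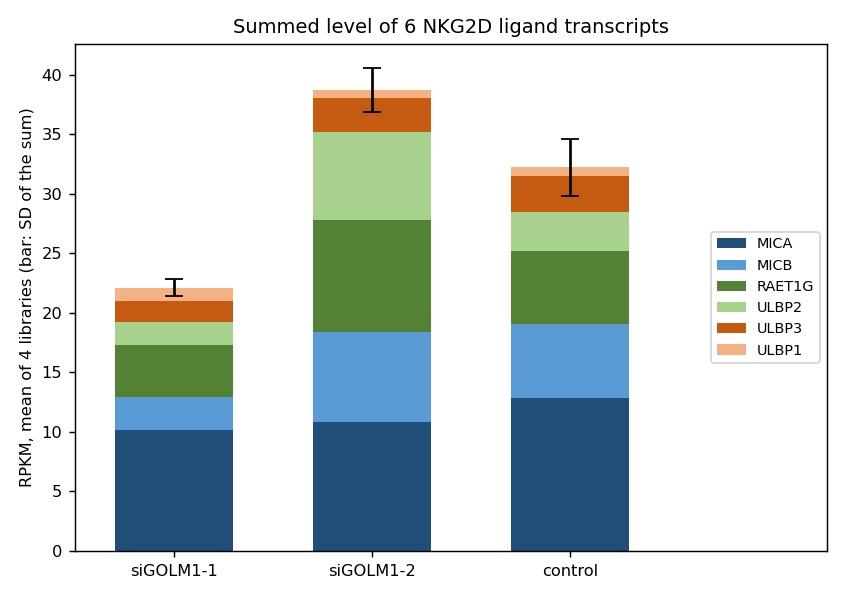
Stacked mean level per length, in RPKM, of the 6 NKG2D ligand transcripts with siGOLM1-1, with siGOLM1-2 and in control, where the bar on each column is the SD of the sum over 4 libraries. The summed level is 22.1 RPKM with siGOLM1-1, 38.7 RPKM with siGOLM1-2 and 32.2 RPKM in control.

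PVR was the most abundant of the 10 transcripts per length in every group, at 76.5 ± 8.12 RPKM with siGOLM1-1, 48.9 ± 2.99 RPKM with siGOLM1-2 and 56.3 ± 3.60 RPKM in control (SD, n = 4). CD276 and MICA came next, at 17.8 and 10.1 RPKM with siGOLM1-1, 16.5 and 10.9 RPKM with siGOLM1-2 and 12.6 and 12.8 RPKM in control, so they did not stand apart from each other in control. CD47 averaged 6.88 RPKM with siGOLM1-1, 9.37 RPKM with siGOLM1-2 and 5.01 RPKM in control. ULBP1 and CD274 had the lowest means in all 3 groups, with CD274 at 0.26 RPKM with siGOLM1-1, 0.44 RPKM with siGOLM1-2 and 0.33 RPKM in control. The means of MICB, RAET1G and CD47 were spread from 2.76 to 6.88 RPKM with siGOLM1-1 and lay within 5.01 to 6.22 RPKM in control.

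PVR rose with siGOLM1-1. It had 234, 298, 258 and 286 CPM with siGOLM1-1, 168, 169, 164 and 187 CPM with siGOLM1-2 and 185, 191, 213 and 204 CPM in control. All siGOLM1-1 libraries were above all others, and the siGOLM1-2 and control libraries overlapped at 1 siGOLM1-2 library. The log2 fold change was 0.44 with siGOLM1-1 (SE 0.08, adjusted p = 6.42e-04). With siGOLM1-2 it was -0.21 (SE 0.08, adjusted p = 0.0578), and 6 of 21 alternatives called it, including the fit with a replicate block (adjusted p = 0.0477). Between the siRNAs PVR was 1.57-fold higher with siGOLM1-1 (log2 0.65, SE 0.08, adjusted p = 1.86e-05).

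CD276 was higher with both siRNAs. It had 80.2, 105, 101 and 108 CPM with siGOLM1-1, 89.8, 88.0, 83.4 and 104 CPM with siGOLM1-2 and 63.4, 68.2, 73.6 and 73.7 CPM in control. Each of the 8 siGOLM1 libraries exceeded each control library. The log2 fold change was 0.50 with siGOLM1-1 (SE 0.10, adjusted p = 9.41e-04) and 0.39 with siGOLM1-2 (SE 0.10, adjusted p = 0.00559). The difference between the siRNAs was 0.11, with an interval of -0.10 to 0.32, and did not pass the test.

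CD47 was also higher with both siRNAs, and more so with siGOLM1-2. It had 45.5, 56.9, 74.2 and 49.9 CPM with siGOLM1-1, 64.9, 73.9, 68.1 and 101 CPM with siGOLM1-2 and 43.1, 43.9, 40.6 and 37.1 CPM in control. The lowest siGOLM1-1 library lay just above the highest control library, and siGOLM1-1 overlapped siGOLM1-2. CD47 was 1.87-fold higher with siGOLM1-2 (log2 0.90, SE 0.16, adjusted p = 4.63e-04), a call that held in all 21 alternatives. With siGOLM1-1 the log2 fold change was 0.46 (SE 0.16, adjusted p = 0.0283), and the call was lost in 7 of 21 alternatives, where the adjusted p ran from 0.0503 to 0.161. Without siGOLM1-1 replicate 3, the library at 74.2 CPM, it was 0.30. The direct difference of -0.44 (SE 0.16, adjusted p = 0.0279) was lost in 5 alternatives.

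CD274 was the only gene of the 10 that passed the test in none of the 3 comparisons. It had 35 to 137 counts per library with siGOLM1-1, 56 to 162 with siGOLM1-2 and 40 to 83 in control. Its levels were 1.95, 0.659, 0.770 and 0.826 CPM with siGOLM1-1, 1.49, 1.37, 1.10 and 3.22 CPM with siGOLM1-2 and 1.66, 1.78, 0.847 and 1.07 CPM in control. Replicate 1 of siGOLM1-1 and replicate 4 of siGOLM1-2 stood well above the other libraries of their groups. The log2 fold change was -0.32 with siGOLM1-1 (95% interval -1.21 to 0.57) and 0.42 with siGOLM1-2 (-0.45 to 1.29), and the difference between the siRNAs was -0.74 (-1.62 to 0.13, adjusted p = 0.137). Without siGOLM1-1 replicate 1 that difference was -1.25 with an adjusted p of 0.0125, so 1 library decided the call. Without siGOLM1-2 replicate 4 the same difference was -0.30 (adjusted p = 0.512), and the log2 fold change with siGOLM1-2 against control was -0.02 (adjusted p = 0.977). Changes within these 95% intervals were not excluded by these libraries.

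**Figure D4:**
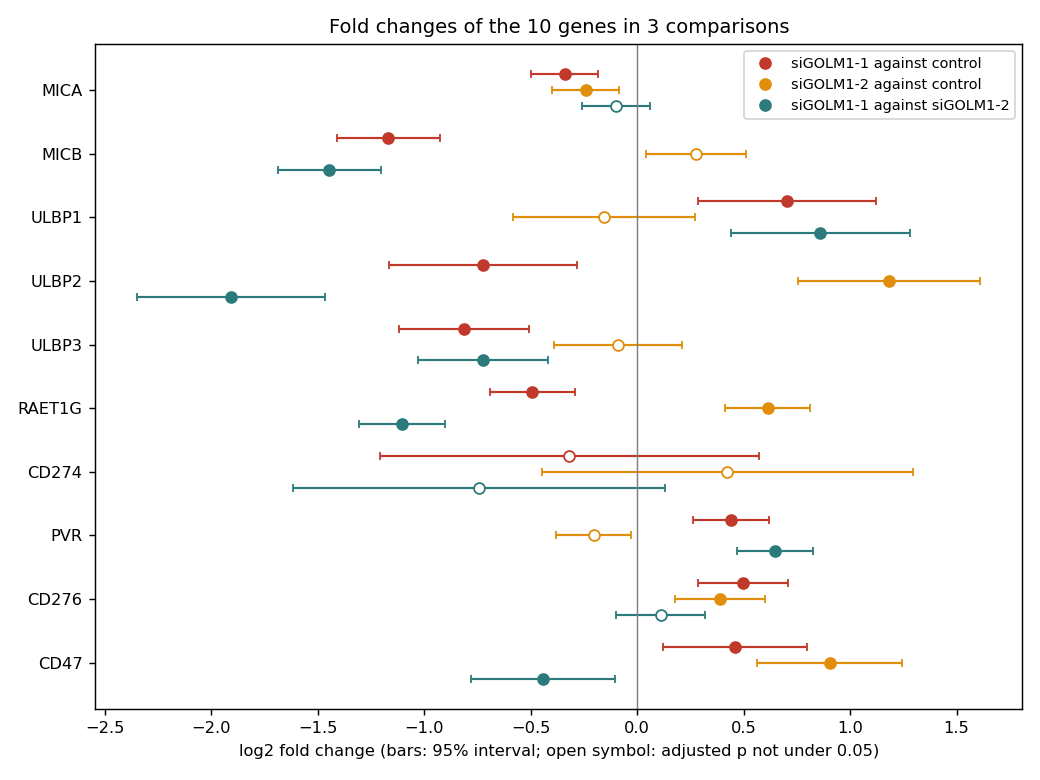
Log2 fold change and 95% interval of the 10 genes with siGOLM1-1 against control, with siGOLM1-2 against control and with siGOLM1-1 against siGOLM1-2, from top to bottom within each gene. Filled symbols passed an adjusted p of 0.05. CD274 has the widest intervals, and ULBP2 has the largest difference between the siRNAs, at -1.91.

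The 4 control libraries deviated from their mean in pairs across all genes tested. Replicates 1 and 2 correlated at 0.33 and replicates 3 and 4 at 0.39, while pairs across them lay between -0.70 and -0.66. Deviations from a mean of the same 4 libraries lean to negative correlations by construction. Within siGOLM1-1 they ran from -0.49 to -0.15 and within siGOLM1-2 from -0.65 to 0.07. The labels name no batch for the pairs of control replicates. All 10 genes separated the pairs, with 7 higher in replicates 1 and 2 and ULBP1, PVR and CD276 lower there. The share of all genes tested that separated these pairs was not counted, so this is not shown to be particular to the 10 genes. With siGOLM1-1, every gene but CD274 kept the sign of its fold change against either pair. CD274 was -0.68 against replicates 1 and 2 and 0.17 against replicates 3 and 4. With siGOLM1-2, the sign turned for ULBP1, at 0.14 against replicates 1 and 2 and -0.38 against replicates 3 and 4, and for ULBP3, at -0.21 and 0.05. The difference between the siRNAs sets no control level against a siGOLM1 level, although the control libraries enter its filter, scaling and dispersion.

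**Figure D5:**
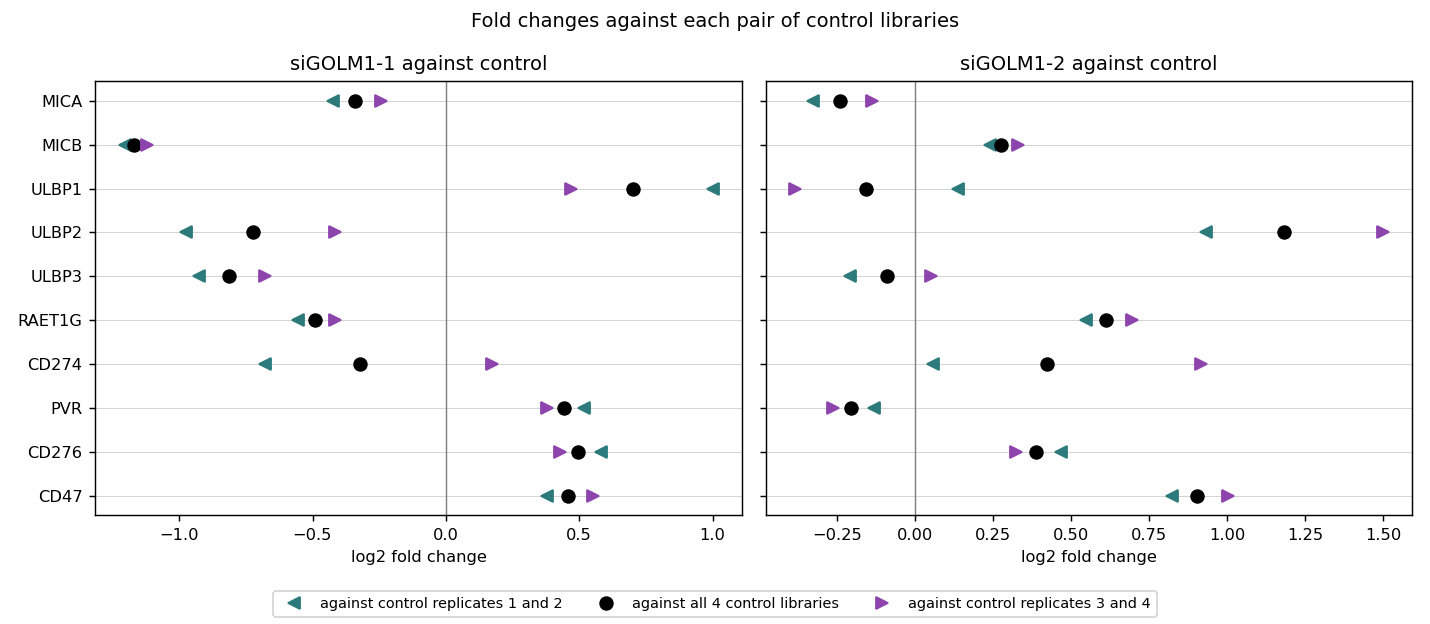
Log2 fold change of the 10 genes with siGOLM1-1 (left) and siGOLM1-2 (right), against control replicates 1 and 2, all 4 control libraries, or control replicates 3 and 4. MICB shifts little between the pairs, while ULBP2 with siGOLM1-1 is -0.97 against replicates 1 and 2 and -0.41 against replicates 3 and 4.

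The wider pathway was read from gene lists in the same fit, with both comparisons against control sharing the control libraries. Among all genes tested, 23.7% were called higher and 23.8% lower with siGOLM1-1, 21.8% and 23.2% with siGOLM1-2, and 27.9% and 26.5% between the siRNAs. Their median log2 fold changes lay between -0.01 and 0.01. Calls were thus common in any list that follows, and no list was tested as a set. Of 8 genes that cut NKG2D ligands from the surface or regulate that step, 6 were higher and none lower with siGOLM1-1 (median log2 fold change 0.49), 4 were higher and 1 lower with siGOLM1-2 (median 0.14), and 4 were higher and 2 lower in siGOLM1-1 against siGOLM1-2 (median 0.52). ADAM17, a sheddase of MICA, MICB and ULBP2, had 150, 163, 176 and 153 CPM with siGOLM1-1, 94.3, 99.9, 95.5 and 98.3 CPM with siGOLM1-2 and 77.9, 76.8, 76.0 and 71.6 CPM in control. It was 2.12-fold higher with siGOLM1-1 than in control (adjusted p = 2.57e-08) and 1.65-fold higher than with siGOLM1-2 (adjusted p = 5.72e-07). With siGOLM1-2 it was 1.28-fold higher than in control (adjusted p = 4.55e-04). ADAM10, a related sheddase, was higher with siGOLM1-1 (log2 0.41, adjusted p = 9.31e-04) and lower with siGOLM1-2 (log2 -0.52, adjusted p = 1.71e-04). MMP2, a matrix protease, was higher with siGOLM1-1 (0.71, adjusted p = 0.0202) and with siGOLM1-2 (1.64, adjusted p = 8.89e-05), and MMP9, with 82 to 518 counts per siGOLM1-2 library and 4 to 8 per control library, was higher with siGOLM1-2 (4.88, adjusted p = 1.89e-04). Against control replicates 3 and 4 only the MMP2 value with siGOLM1-2 was 2.32, and without siGOLM1-2 replicate 4 the MMP9 value was 3.80. TIMP3, which inhibits ADAM17, also rose with siGOLM1-1 (log2 2.25, SE 0.35, adjusted p = 1.83e-04) and with siGOLM1-2 (1.58, SE 0.35, adjusted p = 0.00263). Its siGOLM1-2 libraries had 2.18, 2.64, 2.09 and 6.78 CPM, against 0.906 to 1.44 CPM in control. The size of the TIMP3 change with siGOLM1-2 thus rests in part on replicate 4.

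Of 19 regulators of ligand transcription and mRNA, 6 were higher and 7 lower with siGOLM1-1 (median 0.01), 4 were higher and 6 lower with siGOLM1-2 (median -0.05), and 5 were higher and 7 lower between the siRNAs (median -0.13). E2F1, a cell cycle factor, fell with siGOLM1-1 (log2 -1.04, SE 0.09, adjusted p = 7.49e-07) and with siGOLM1-2 (-0.31, SE 0.09, adjusted p = 0.0119). MYC fell with siGOLM1-1 (-0.57, SE 0.09, adjusted p = 1.17e-04) and rose with siGOLM1-2 (0.33, SE 0.09, adjusted p = 0.00711). NFKB1 rose with siGOLM1-1 (0.43, SE 0.08, adjusted p = 3.76e-04) and with siGOLM1-2 (0.66, SE 0.08, adjusted p = 1.40e-05). E2F3 rose with siGOLM1-1 (0.43, SE 0.07, adjusted p = 1.99e-04) and fell with siGOLM1-2 (-0.82, SE 0.07, adjusted p = 1.32e-06). Both directions were thus present among the regulators with each siRNA.

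Among 23 other B7 family and checkpoint ligands, 18 were tested. With siGOLM1-1 9 were higher and 3 lower (median 0.67), with siGOLM1-2 11 were higher and 1 lower (median 0.52), and between the siRNAs 4 were higher and 8 lower (median -0.06). NCR3LG1 (B7-H6), the ligand of the activating receptor NKp30, had 5.99, 5.27, 5.09 and 6.27 CPM with siGOLM1-1, 19.0, 19.9, 22.2 and 22.5 CPM with siGOLM1-2 and 13.7, 13.1, 12.8 and 13.0 CPM in control. The 3 groups did not overlap, with the order seen for MICB. NCR3LG1 was 2.32-fold lower with siGOLM1-1 (adjusted p = 2.42e-07) and 1.59-fold higher with siGOLM1-2 (adjusted p = 4.58e-05). PDCD1LG2 (PD-L2), which shares the receptor PD-1 with CD274, had 7 to 17 counts per library with siGOLM1-1 and 62 to 208 with siGOLM1-2, and it was 9.60-fold lower with siGOLM1-1 than with siGOLM1-2 (log2 -3.26, adjusted p = 9.82e-05). Without siGOLM1-2 replicate 4, the library at 208 counts, that difference was -2.64 on the log2 scale (adjusted p = 5.77e-05). HLA-E, which engages the inhibitory receptor NKG2A, was 1.45-fold higher with siGOLM1-1 (adjusted p = 4.36e-05) and 1.69-fold higher with siGOLM1-2 (adjusted p = 3.18e-06) than in control.

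Of 23 regulators of PD-L1, 7 were higher and 4 lower with siGOLM1-1 (median 0.09), 11 were higher and 5 lower with siGOLM1-2 (median 0.33), and 7 were higher and 6 lower between the siRNAs (median -0.03). Without siGOLM1-2 replicate 4, the library with the highest CD274, 8 were higher and 2 lower with siGOLM1-2. Scaled by library totals alone, the split was 15 higher and 2 lower with siGOLM1-2 and 4 higher and 8 lower between the siRNAs. CMTM4, which protects PD-L1 from degradation, fell with siGOLM1-1 (log2 -0.995, SE 0.10, adjusted p = 3.61e-06) and was at 0.22 with siGOLM1-2 (adjusted p = 0.0848). IRF2, a repressor within the interferon response, rose with siGOLM1-1 (0.78, adjusted p = 8.60e-07) and with siGOLM1-2 (0.64, adjusted p = 7.46e-06).

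Of 8 nectins and nectin-like proteins, the family of PVR, 2 were higher and 2 lower with each siRNA against control (medians 0.12 with siGOLM1-1 and 0.05 with siGOLM1-2), and 3 were higher and 3 lower between the siRNAs (median -0.03). Scaled by library totals alone, 3 were higher and 1 lower with siGOLM1-2. PVRL4 (nectin-4) had 6.57, 5.40, 4.74 and 5.84 CPM with siGOLM1-1, 5.95, 5.77, 5.09 and 5.77 CPM with siGOLM1-2 and 2.82, 2.28, 1.99 and 1.95 CPM in control. It was higher by 1.32 on the log2 scale with each siRNA (SE 0.14 in both, adjusted p = 6.71e-06 with siGOLM1-1 and 9.35e-06 with siGOLM1-2). CADM1, an adhesion protein that binds CRTAM on natural killer cells, was lower with siGOLM1-1 (-1.37, adjusted p = 3.21e-08) and with siGOLM1-2 (-0.44, adjusted p = 6.30e-04).

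Of 7 genes around CD47, 2 were higher and 2 lower with siGOLM1-1 (median 0.14), 4 were higher and 2 lower with siGOLM1-2 (median 0.30), and 3 were higher and 2 lower between the siRNAs (median -0.16), against 2 higher and 3 lower when scaled by library totals alone. QPCT, of the glutaminyl cyclase family whose member QPCTL modifies CD47 for SIRPA binding, was lower with siGOLM1-1 (-1.40, SE 0.11, adjusted p = 3.71e-07) and higher with siGOLM1-2 (0.70, SE 0.11, adjusted p = 1.64e-04). QPCTL was not called with siGOLM1-1 (0.14, adjusted p = 0.181). Its mean was 23.5 CPM with siGOLM1-1, 26.3 CPM with siGOLM1-2 and 21.4 CPM in control. SIRPA itself, a receptor of macrophages, was higher with siGOLM1-1 (1.28, SE 0.10, adjusted p = 2.70e-07) and was at 0.13 with siGOLM1-2 (adjusted p = 0.293). In these A549 cultures SIRPA averaged 164 CPM with siGOLM1-1, 73.9 CPM with siGOLM1-2 and 67.5 CPM in control. B2M, the light chain of MHC class I, rose 1.99-fold with siGOLM1-2 (adjusted p = 2.87e-05), while its log2 fold change with siGOLM1-1 was -0.09 (adjusted p = 0.558).

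Of 12 genes for surface or other proteins that natural killer cells engage, 10 were tested. The list held adhesion and receptor ligands and also the death receptors FAS, TNFRSF10A and TNFRSF10B, which were all called higher with siGOLM1-2. With siGOLM1-1 4 were higher and 1 lower (median 0.32), with siGOLM1-2 8 were higher and 1 lower (median 0.75), and between the siRNAs 2 were higher and 5 lower (median -0.32), or 1 higher and 5 lower when scaled by library totals alone. FAS, the death receptor, had 16.6, 10.4, 12.3 and 9.02 CPM with siGOLM1-1, 77.6, 86.7, 79.5 and 84.5 CPM with siGOLM1-2 and 36.5, 35.2, 29.9 and 27.7 CPM in control. It was 2.67-fold lower with siGOLM1-1 (adjusted p = 7.92e-06) and 2.54-fold higher with siGOLM1-2 (adjusted p = 1.39e-05). ICAM1, the adhesion ligand of LFA-1, was 3.85-fold higher with siGOLM1-1 (adjusted p = 7.70e-04) and 3.89-fold higher with siGOLM1-2 (adjusted p = 8.08e-04). It had 44 to 66 counts per control library. The siGOLM1-2 libraries had 3.47, 3.22, 3.82 and 8.49 CPM, so the size of the ICAM1 change with siGOLM1-2 rests in part on replicate 4. TNFRSF10A, a TRAIL receptor, was 1.33-fold higher with siGOLM1-1 (adjusted p = 0.00154) and 1.99-fold higher with siGOLM1-2 (adjusted p = 1.32e-06).

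The genes whose log2 CPM ran most like that of a member over the 12 libraries were found among 11191 genes averaging 5 CPM or more. These libraries fall into 3 treatment groups, so the coefficients largely restate the order of the groups and carry no test. MICB was closest to ATAD1 (Pearson r = 0.995) and AGK (0.99), PVR to GAPDH (0.995) and WISP2 (0.99), and RAET1G to IRAK4 (0.99) and AKR1B10 (0.99). ULBP2 was closest to SFMBT2 (0.98) and PPT2 (0.98), ULBP3 to DDI2 (0.98) and SLC7A2 (0.98), and ULBP1 to ZNF784 (0.95) and AP5S1 (0.95). CD276 was closest to PLEKHM2 (0.99) and MAP2K2 (0.99), CD47 to CDCP1 (0.99) and FAM3C (0.99), and MICA to ASCC1 (0.94) and EXOSC9 (0.92). CD274 had the weakest nearest genes, TLE4 (0.83) and USP31 (0.81). Among the 10 genes themselves, RAET1G was most like ULBP2 (0.90), MICB most like ULBP3 (0.88) and PVR most like ULBP1 (0.91), while PVR and ULBP3 ran most opposite (-0.92).

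In the authors' deposited table for siGOLM1-1, 4 of the 10 genes were higher and 5 lower at an adjusted p under 0.05, and every call was the same as in the edgeR fit. In the authors' deposited table for siGOLM1-2, 5 were higher and 1 lower, and 9 of 10 calls were the same. The exception was MICB, at a log2 fold change of 0.29 and an adjusted p of 0.0347 in the authors' deposited table.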

How the data were processed

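Whole-transcript RNA was sequenced from 12 A549 cultures in 3 groups of 4. Per the labels' protocols, libraries came from a stranded mRNA kit and paired reads of 101 bases; per the submitters' processing notes, the authors used bcl2fastq 2.20, STAR 2.7.3, build hg19 and DESeq2 1.24.0. Counter, annotation and strand setting are not given in the sources used here. The authors deposited raw counts per gene and, per the file headers, result tables with a log2 fold change, its SE, p-value and adjusted p-value; other columns of those tables were not used. Here, counts were filtered with filterByExpr, scaled with TMM and fitted for all 12 libraries with edgeR 4.0.16 (R 4.3.3, quasi-likelihood, 9 residual degrees of freedom), with Benjamini-Hochberg adjustment over 17532 genes; 95% intervals come from the same fit. DESeq2 1.42.0 was an alternative. Exon lengths are from GENCODE 29 and promoters from RefSeq, both on GRCh38, used by gene name and not by hg19 position. The code was tested on simulated data. Replicate pairs differed by more than counting noise (chi-square per gene 5.96 or more). The members, lists and the rule for named genes (per list and comparison, up to 3 called genes with the smallest p, of which some are named) were chosen with earlier results of these data known. Biological replicates are as labelled; whether they were separate days is not given.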

Additional observations from a re-analysis of the deposited data

Results flagged for a closer look

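Dixon's test was applied to 30 sets of 4 libraries, the 10 genes in 3 groups, and chance marks about 1 set in 20. It marked 3. ULBP2 stood at 13.4 CPM in siGOLM1-2 replicate 4, where the next library was at 9.09 CPM. RAET1G stood at 12.8 CPM in the same library, below the next at 14.3 CPM. CD274 stood at 1.95 CPM in siGOLM1-1 replicate 1, where the next library was at 0.826 CPM. Replicate 4 of siGOLM1-2 was also the highest of its group for MICB, CD274, PVR, CD276 and CD47. This library stood apart beyond the 10 genes. Its chi-square per gene was 54.1, 47.1 and 73.4 against replicates 1, 2 and 3, whose own pairs lay between 5.96 and 18.1. It also held the most GOLM1 of its group, at 53.4 CPM. Without it, the calls of ULBP2 and RAET1G with siGOLM1-2 against control were kept. The cause was not tested.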

How the results depend on the processing

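The 21 alternatives changed scaling, filter, test, the libraries in the fit or the control libraries. Members called ranged from 6 to 9 with siGOLM1-1, from 4 to 7 with siGOLM1-2 and from 6 to 8 between the siRNAs. Of 630 values for the 30 gene results, 597 kept their side of the threshold, 18 lost the call, 15 gained it, and no called value changed sign. Of the 597, 6 values of 5 uncalled results changed sign: CD274 with each siRNA, ULBP1 and ULBP3 with siGOLM1-2, and CD276 between the siRNAs. The replicate block gave 9, 6 and 7 members in that order. Numbers were not taken to pair the libraries, since same-number correlations ran from -0.20 to 0.35. For 2 of 12 libraries, the best match had their own number in both other groups at once. Whether that exceeds chance was not tested. MICB with siGOLM1-2 was called in 7 alternatives (0.27 to 0.35). MICA between the siRNAs was called with library totals alone (-0.23, adjusted p = 0.0203), a scaling that moved the median of all genes to -0.12.

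The same alternatives were applied to the lists after seeing the data. Of 1385 values for 66 named list results, 3 lost the call and none changed sign. These results were picked as called with the smallest p in the same data, so keeping the call was largely set by that choice. Other list values given above, among them TIMP3 and ICAM1 with siGOLM1-2, were outside these 66. List calls moved by over 1.5 times in 3 cases: the ligand regulators with siGOLM1-2 had 6 calls against control replicates 3 and 4 only, the PD-L1 regulators with siGOLM1-2 had 10 without its replicate 4 (10 to 16 when 1 library was left out), and the CD47 genes with siGOLM1-1 had 2 with no filter. The cause was not tested. Counts of 35 to 162 for CD274 limit its precision.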
